A study of Drosophila melanogaster with 2 samples.

Results

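CG6654 of Drosophila melanogaster is a C2H2 zinc finger protein with a zinc finger-associated domain (ZAD). Its binding was mapped over the genome. It is described here at 8 other ZAD family genes and around its own gene, inside which no list had a summit. The 9 genes described here are CG6654, CG10147, CG10274, CG14711, CG1792, CG4820, Zaf1, idc and trem, of 13968 annotated protein-coding genes. They were chosen with the binding known: CG6654 as the gene of the precipitated protein, and the other 8 because a peak lay at one of their start sites. Their presence at peaks is therefore a description of the choice and not a result.

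The data are chromatin immunoprecipitation with sequencing (ChIP-seq) of whole embryos aged 0 to 12 h, of both sexes pooled, from a transgenic line that makes CG6654 fused at its C terminus to enhanced green fluorescent protein (eGFP). An antibody against GFP was used. All samples belong to 1 group, with 2 biological replicates numbered 1 and 3, so no condition is compared. The labels do not say what drives the fusion or whether the untagged protein is also made. Whole embryos of this age mix cell types and stages, and a site bound in few cells cannot be told apart from a site bound weakly in many.

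ZAD proteins carry a domain near the N terminus in which cysteines hold a zinc ion and through which the proteins pair. C2H2 zinc fingers, which bind DNA, follow it. The family is large in insects, and many of its genes lie in clusters that arose by duplication. Of the genes described here, trem (trade embargo) is needed to start meiotic recombination in the female germline.

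The authors deposited 4 lists of regions on the dm6 genome build. Each replicate and the pooled reads had a list of 30000 regions, in which the weakest signal was 12.6 in replicate 1, 12.4 in replicate 3 and 19.7 in the pool. The set of peaks selected by irreproducible discovery rate (IDR) had 2962 members, with signal values from 74.8 to 8385 and a median of 129. The signal value is the authors' own, and its scale is not stated. It is used here within a list or set side by side, apart from ratios of pooled to replicate signals. Those ratios take the scale to be shared by the lists, which is not stated. All 2962 IDR peaks were the 2962 highest regions of the pooled list, with the same summit and signal. A peak could therefore be in the set without a region in 1 of the replicates. That was so for 218 IDR peaks in replicate 1 (7.36%) and for 8 in replicate 3.

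The family rule, which asks for the cysteine spacing of the domain and for at least 1 finger after it, was met by the longest protein of all 9 genes. In the translated gene models the first cysteine of the domain stood between residue 5 in CG4820 and residue 23 in idc, and the domain spanned 47 residues in Zaf1 to 54 in CG14711. The number of fingers differed more. CG10274 had 12 in a protein of 863 residues, CG6654 and CG10147 had 9 each in 639 and 448 residues, and CG4820 had 3 in 362. The other 5 genes had 5 fingers each, in proteins of 372 to 521 residues.

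The 8 genes at peaks had 6 peaks at their start sites, because idc and trem share 1 and CG14711 and Zaf1 share another. Over all protein-coding genes 10.9% had an IDR summit within 500 bp of a start, and nothing is read from the 8, since they were picked for it. A further IDR peak lay downstream of idc. The sequences below are the dm6 plus strand around the summits of these 7 peaks, shown because they can be compared with the words that mark the other peaks of the protein. Each has 50 bases on either side of the summit, except that the CG1792 stretch stops at the first exon of the neighbouring gene (chr3R:31616161-31616234, 74 bases) and the CG14711 and Zaf1 stretch, which is exonic, has 30 bases. Capitals mark a match, on either strand, to any of the 15 leading words or 5 core promoter words described after the values.
CG1792: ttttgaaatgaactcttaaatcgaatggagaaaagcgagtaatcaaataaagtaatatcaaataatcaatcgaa
CG10147: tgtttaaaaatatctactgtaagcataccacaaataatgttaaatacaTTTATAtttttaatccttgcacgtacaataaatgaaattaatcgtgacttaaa
idc downstream: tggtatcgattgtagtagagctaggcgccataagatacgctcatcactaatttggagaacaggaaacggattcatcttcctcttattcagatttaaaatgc
CG4820: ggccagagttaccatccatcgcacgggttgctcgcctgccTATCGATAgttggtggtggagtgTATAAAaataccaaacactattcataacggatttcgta
idc and trem: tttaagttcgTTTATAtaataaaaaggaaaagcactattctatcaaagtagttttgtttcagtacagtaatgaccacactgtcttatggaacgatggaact
CG14711 and Zaf1: atttagttctaAAACTGTAtttttattgcg
CG10274: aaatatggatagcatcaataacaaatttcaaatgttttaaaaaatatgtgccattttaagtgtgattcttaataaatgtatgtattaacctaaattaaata

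The other stretches lie at chr3L:6488543-6488643 for CG10147, chr3R:20036114-20036214 for the peak downstream of idc, chr3R:11216299-11216399 for CG4820, chr3R:20031495-20031595 for idc and trem, chr3R:11623172-11623201 for CG14711 and Zaf1, and chr3L:6181926-6182026 for CG10274. Most are rich in A and T. Over the 50 bases on either side of the summit the GC content was 19.8% at CG10274, 22.8% at CG10147, 28.7% at CG1792, 29.7% at CG14711 and Zaf1 and 30.7% at idc and trem. It was 39.6% at the peak downstream of idc and 46.5% at CG4820. Over all 1214 IDR peaks at a protein-coding start the median was 32.7% and the 10th percentile 23.1%, so CG10274 and CG10147 lay below the 10th percentile and CG4820 stood highest of the 7.

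The peak at CG1792 (FBgn0039860; 3R, 31616303 to 31617837, plus strand) was the strongest of the 7. The region spanned 31616061 to 31616306, 246 bp, with its summit 119 bp upstream of the CG1792 start. Its signal was 348 in the IDR set, rank 349 of 2962 and rank 157 among the 1214 start-site peaks, and 195 in replicate 3, rank 359. The list of replicate 1 had no region overlapping it, and its nearest region lay 3746 bp away with a signal of 13.4, close to the floor of that list. A high peak in replicate 3 thus had no listed region in replicate 1, which does not show that replicate 1 had no signal there. Among the 349 IDR peaks with a signal at least as high, 5 lacked a replicate 1 region. The summit lay closer to Mnat9, which encodes a homologue of N-acetyltransferases and runs the other way. Its starts were 24 and 164 bp from the summit.

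The peak at CG10147 (FBgn0035702; 3L, 6486167 to 6488424, minus strand) was present in every list. The region spanned 6488480 to 6488711, 232 bp, and its summit lay 169 bp upstream of the CG10147 start. Its signal was 280 in the IDR set, 115 in replicate 1 and 171 in replicate 3, with ranks of 473, 482 and 449. The ranks were close to each other in the 3 lists. Its summit in replicate 3 differed by 2 bp and in replicate 1 by 39 bp. The divergent neighbour was Bulli, which encodes a subunit of the complex that activates the endosomal GTPase Rab7, with its start 88 bp from the summit.

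The peak at CG4820 (FBgn0037876; 3R, 11216535 to 11217898, plus strand) was the second without a replicate 1 region. It spanned 11216253 to 11216417, 165 bp, with its summit 186 bp upstream of the CG4820 start. Its signal was 192 in the IDR set, rank 849, and 136 in replicate 3, rank 651. The nearest replicate 1 region lay 11350 bp away with a signal of 23.1. The divergent neighbour was RpS25, which encodes a protein of the small ribosomal subunit, and its start was 62 bp from the summit. Of the 2 genes, RpS25 was the nearer to the summit.

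The peak between idc (FBgn0038768; 3R, 20031823 to 20034330, plus strand) and trem (FBgn0038767; 3R, 20029560 to 20031309, minus strand) was, with that of CG14711 and Zaf1, 1 of 2 sites where both divergent genes belong to the family. It spanned 20031353 to 20031736, 384 bp, with its summit 278 bp upstream of idc and 236 bp upstream of trem. Its signal was 165 in the IDR set, rank 1066, 89.4 in replicate 1, rank 695, and 79.5 in replicate 3, rank 1439. Of the 4 peaks with a region in both replicates it was the only one with a higher signal value in replicate 1 than in replicate 3, on scales that need not be shared. A second summit nearer to idc, 79 bp upstream of its start, was in the pooled list with a signal of 61.9, rank 3762, and in replicate 1 with 27.6, rank 3673. Replicate 3 had no separate region there, and its single summit lay 53 bp from the IDR summit, toward idc.

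The peak downstream of idc belonged to the promoter of another gene. It spanned 20036107 to 20036244, 138 bp, 4341 bp downstream of the idc start and 108 bp upstream of the start of Regnase-1, an RNase of messenger RNA. Its signal was 208 in the IDR set, rank 737, 49.1 in replicate 1, rank 1611, and 156 in replicate 3, rank 514. It was higher ranked than the peak at the idc start in the IDR set and in replicate 3, and lower ranked in replicate 1.

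The peak shared by CG14711 (FBgn0037922; 3R, 11623339 to 11624948, plus strand) and Zaf1 (FBgn0037921; 3R, 11621466 to 11625644, minus strand) stood at an internal start of Zaf1. CG14711 lies within the span of the longer Zaf1 gene model on the other strand. The peak spanned 11622992 to 11623375, 384 bp, with its summit 87 bp upstream of the Zaf1 start at 11623097 and 155 bp upstream of CG14711, in an exon of the longer Zaf1 transcript outside its coding part. The start of that longer transcript, at 11625644, had no IDR peak within 2000 bp upstream of it. The signal was 105 in the IDR set, rank 1946, and 84.5 in replicate 3, rank 1306. Replicate 1 had no overlapping region, and its nearest lay 5082 bp away with a signal of 13.7.

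The peak at CG10274 (FBgn0035690; 3L, 6178677 to 6181829, minus strand) was the weakest. It spanned 6181784 to 6182167, 384 bp, with its summit 147 bp upstream of the start, and no other start lay within 500 bp of it. Its signal was 89.1 in the IDR set, rank 2424, 43.5 in replicate 1, rank 1854, and 49.1 in replicate 3, rank 2893. The replicate 3 rank was close to 2962, the number of IDR peaks. The IDR set is bounded in the pooled list, however, where the peak ranked 2424. The summit in replicate 1 lay 97 bp farther upstream and that in replicate 3 differed by 2 bp.

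**Figure D1:**
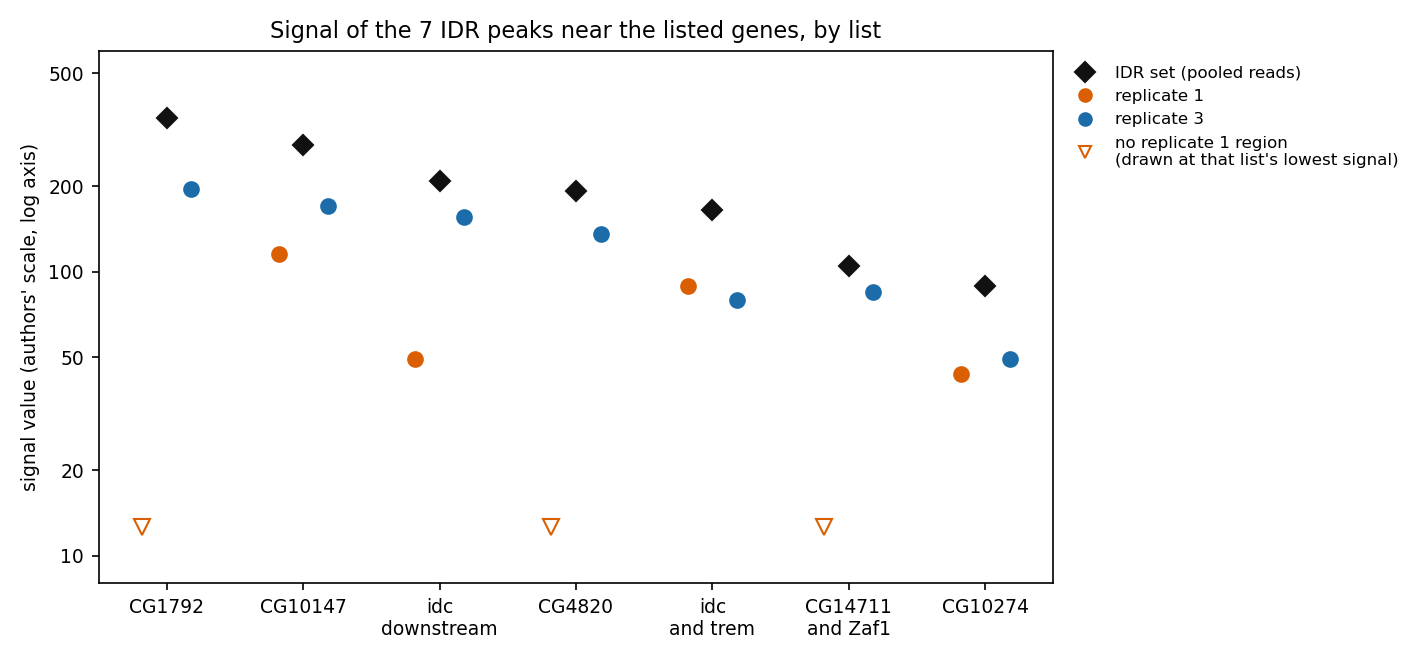
Signal value (authors' scale, log axis) of the 7 IDR peaks near the listed genes, from the IDR set (black diamonds), replicate 1 (orange) and replicate 3 (blue); an open triangle at 12.6, the lowest signal of the replicate 1 list, marks a peak with no replicate 1 region. Both replicates cover CG10147, idc downstream, idc and trem, and CG10274, whereas CG1792, CG4820 and CG14711 and Zaf1 have no replicate 1 region.

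Replicate 1 had no region at 3 of the 7 peaks, CG1792, CG4820 and CG14711 with Zaf1, whereas replicate 3 had one at all 7. Over the IDR set 7.36% of the peaks lacked a replicate 1 region. The ratio of the pooled to the replicate 3 signal was 1.79 at CG1792, 1.41 at CG4820 and 1.24 at CG14711 and Zaf1. For comparison, it had a median of 1.55 over the 218 IDR peaks without a replicate 1 region and a median of 1.7, with a 5th to 95th percentile range of 1.23 to 2.34, over the 2736 with a region in both. The ratio at CG1792 lay above both medians, and all 3 ratios lay inside that range, on scales that need not be shared. Whether replicate 1 had signal below its list at these peaks was not tested. For peaks in both lists the pooled signal was close to the sum of the replicates' signals, with a median ratio of 1. With any overlap 4 of the 7 peaks were in both replicate lists, as were 2736 of the 2962 IDR peaks. With reciprocal overlap of at least 50%, 2 of the 7, CG10274 and idc with trem, were. The share of all IDR peaks under that rule was not counted. CG10147 and idc downstream missed it in replicate 1, where region widths differed, 232 against 95 bp and 138 against 380 bp. Their replicate 1 summits lay 39 and 1 bp from the IDR summits. In the 2962 highest regions of replicate 1 alone, 4 of the 8 genes (CG10147, CG10274, idc and trem) had a summit within 500 bp of a start. Of all protein-coding genes 9.19% had one there. In those of replicate 3 alone all 8 had one, against 11.5% of all protein-coding genes.

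All 6 start-site peaks had their summits upstream of every member start they lay at, by 87 to 278 bp. Of all bound protein-coding genes, meaning genes with an IDR summit within 500 bp of a start, 87.7% had the summit upstream, at a median of 158 bp before the start (signed distance -158). The placement was therefore like that of most bound genes. At 5 of the 6 the summit lay beside starts that point away from each other, and the share over all start-site IDR peaks was 32.5% (394 of 1214). Of the 111 genes that met the family rule 61 (55%) have a start on the other strand within 1000 bp upstream. So have 7 of the 8 genes here, 36.2% of protein-coding genes and 61.5% of bound ones. At CG1792, CG10147 and CG4820 the start of the divergent neighbour, which is no family gene, was nearer to the summit than that of the family gene, so the peaks cannot be assigned to 1 of the 2 genes from distance alone.

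**Figure D2:**
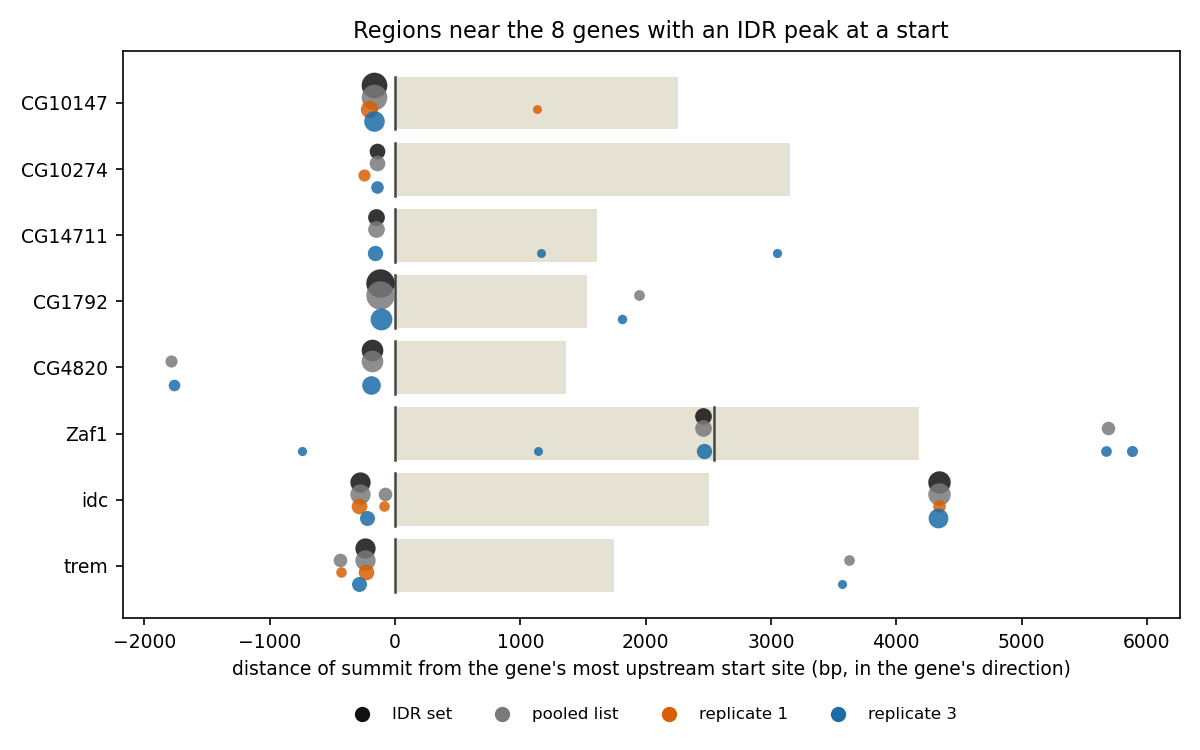
Distance of each region's summit from the most upstream start site of the gene (x axis, bp in the gene's direction) for the 8 genes with an IDR peak at a start, with gene bodies as shaded bars, start sites as vertical lines, a colour and height for each list, and the area of a point growing with its signal value. The largest points sit 119 to 278 bp before a start, except at the internal start of Zaf1 and at the Regnase-1 promoter 4341 bp into the idc plot.

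Of the 5 pooled regions near the 8 genes that were no IDR peak, 4 lay nearest to the start of another gene. Within 2000 bp of the 8 genes the lists held 7 distinct IDR peaks, 12 pooled regions, 6 regions of replicate 1 and 14 of replicate 3. Outside the 7 peaks, the strongest pooled region after the second idc summit had a signal of 61, rank 3834, and lay 3141 bp downstream of the internal Zaf1 start, 50 bp from the start of Jupiter, which encodes a microtubule-associated protein. Replicate 3 had 2 regions there, with signals of 32.8 and 28.8. CG14710, which met the family rule, also had a start within 500 bp of the pooled region of 61. A pooled region of 43.9 upstream of CG4820 lay 206 bp from the start of ZnT86D, a zinc transporter gene, with 38.3 in replicate 3. One of 29.8 downstream of CG1792 lay 175 bp from pasha, which encodes the partner of Drosha in microRNA processing, with 17.8 in replicate 3. The pooled list also held 1 of 28.9 downstream of trem, 354 bp from CG4424. Both CG4424 and CG4854 met the family rule and had a start within 500 bp of that region. Inside the genes, other than the shared Zaf1 peak, stood a replicate 1 region of 13.2 in CG10147 and a replicate 3 region of 13.1 within both CG14711 and Zaf1. Both were near the floors of their lists.

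Nearest to the limit of the IDR set, at 74.8, the weakest peak inside was that of CG10274 at 89.1, and the strongest regions outside were those of 61.9 beside idc and 61 beside Jupiter.

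No list had a summit inside CG6654 (FBgn0038301; 3R, 15211277 to 15213658, minus strand). Within 10000 bp of it there were 0 IDR peaks, 2 pooled regions, 0 regions of replicate 1 and 5 of replicate 3. Having no region within that distance was common in the IDR set, where it held for 53.2% of protein-coding genes, and less so in the other lists, where it held for 4.53% of genes in the pooled list, 8.55% in replicate 1 and 6.55% in replicate 3. CG6654 was 1 of 1194 such genes in replicate 1.

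The regions around CG6654 lay nearest to the starts of its neighbours, and that of 34.8 in replicate 3 was also within 500 bp of its own start. The 2 pooled regions had signals of 30.6 and 22.9, ranks 11883 and 22339, and lay 205 and 54 bp from the start of Spn88Ea, a serpin gene, 7416 and 7157 bp downstream of the CG6654 start. Replicate 3 had 2 regions at Spn88Ea, with signals of 43.5 and 21.7. It had 1 of 89.1, rank 1210, between the divergent starts of Mau2 and Spn88Eb, 70 bp from the former and also within 500 bp of the latter. Mau2 encodes a subunit of the cohesin loader and overlaps the 3' end of CG6654. The strongest region of replicate 3, 135 at rank 655, lay 5414 bp upstream of CG6654 between the divergent starts of SIDL and CG12241. The nearest to CG6654 had a signal of 34.8, rank 4865, and lay between the divergent starts of CG6654 and CG4210, 251 bp upstream of the former and 65 bp from the latter. It cannot be assigned to 1 of these genes from distance alone.

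The regions of 135 and 89.1 were among the 2962 highest of replicate 3, yet the pooled list had no summit beside them, and its nearest lay 4776 bp from the gene. In all, 40 of the 2962 highest regions of replicate 3 (1.35%) overlapped no pooled region. The nearest IDR peak lay 15862 bp away (3R, 15229365 to 15229691, signal 813, rank 125), 112 bp from the start of Art3, an arginine methyltransferase gene. The nearest region of replicate 1 lay 14152 bp away, 183 bp from CG42542, with a signal of 13.6. The starts of Spn88Eb (a serpin), of Polr2G (a subunit of RNA polymerase II), of mir-9383 and of 2 unnamed non-coding RNAs that overlap it also lay within 10000 bp. They were the nearest start of none of these regions.

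**Figure D3:**
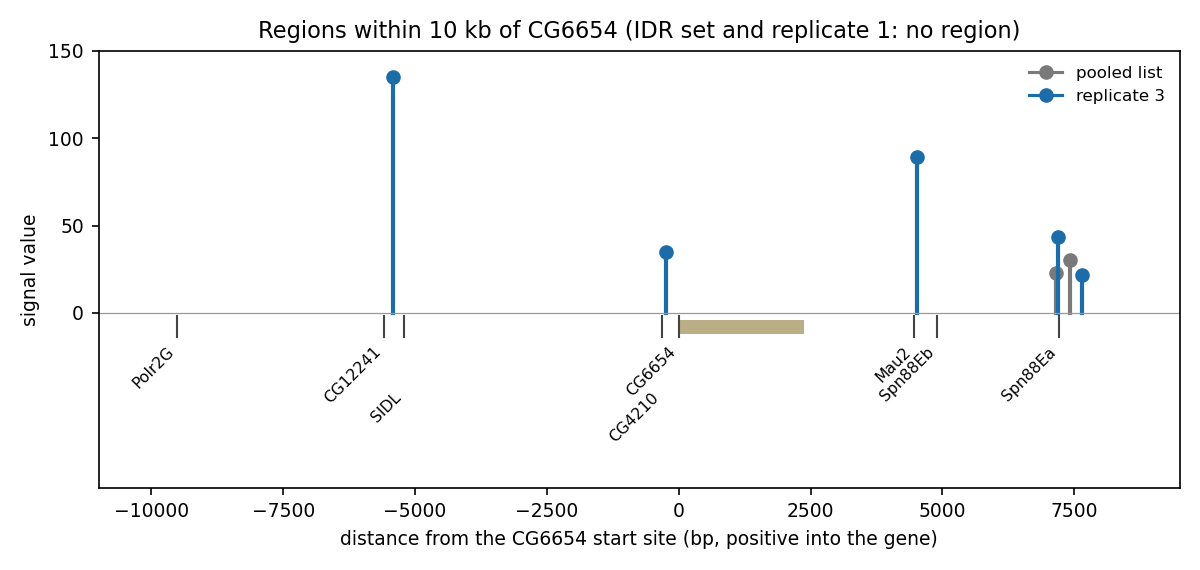
Signal value (y axis, authors' scale) of each region within 10 kb of CG6654 against the distance of its summit from the CG6654 start (x axis, bp, positive into the gene); grey is the pooled list, blue replicate 3, the tan bar the gene, and ticks the starts of protein-coding genes. Points stand at the starts of Spn88Ea, Mau2, CG4210, SIDL and CG12241, the highest at 135, and none above the gene. The point at CG4210 lies 251 bp upstream of the CG6654 start.

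Among the 111 genes that met the family rule, 19 (17.1%) had an IDR summit within 500 bp of a start, at 17 distinct peaks. Over all protein-coding genes the share was 10.9% (1524 of 13968). By name, with a list of 71 ZAD genes, 11 (15.5%) had one. The rule asks only for cysteine spacing and a finger, and 64 of its genes were in that list, so some may not be ZAD genes. Of the bound genes not among the 8, only M1BP and D19B lay inside the ranges of the 9 genes described here. CG11247 had a first cysteine at residue 95 and a span of 61 residues, pzg 83 and 52, zf30C 33 and 69, and CG17361 32 and 64. CG18476, CG12942, CG3032 and CG1647 had spans of 55 to 59 residues, and CG4707 a first cysteine at residue 4. A place outside these ranges does not show that the domain is absent. The 8 listed genes are among the 19 by choice. In as many top-ranked regions of replicate 1 alone 14 family genes were bound (9.19% of all genes), in those of replicate 3 alone 17 (11.5% of all genes), and in both 12 (7.68% of all genes). Genes that share a peak are not independent, and no test was made of these shares.

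The bound family genes not among the 8 had signals of the same order, and each of the 10 highest had a region in both replicate lists. M1BP, the factor of the core promoter word Motif 1, had the highest, 231 in the IDR set, 88.3 in replicate 1 and 149 in replicate 3, with its summit 288 bp upstream. CG18476 had 201.3, with 53.6 and 147 in the replicates. CG11247, with its summit at the start itself, had 194, with 95.3 and 97.8. These 3 stood between CG10147 and CG4820 in the order of signals.

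The next were CG12942 with an IDR signal of 173, CG17361 with 157, CG3032 with 118, zf30C with 111, D19B with 109, CG4707 with 108 and pzg with 106. The protein of pzg (putzig) is a chromatin factor that works with Dref and the NURF remodeller. D19B is the neighbour of CG10274 on 3L, and both encode proteins with 12 fingers. Its own peak lay 256 bp upstream of its start, apart from the CG10274 peak, with 41 in replicate 1 and 71.5 in replicate 3. The last of the 19, CG1647, had 77.1, near the limit of the set. The median over the 19 was 157 and over all bound protein-coding genes 142.

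Of the 92 family genes without an IDR summit at a start, 24 (26.1%) had a pooled region there, near the 29.4% of all protein-coding genes without an IDR summit at a start. The nearest to the limit of distance were prg, with the closest IDR summit at 1155 bp, and CG31441, at 1282 bp. At its start prg had a pooled signal of 56.5, with 16.4 in replicate 1 and 35.7 in replicate 3, and CG31441 had 20.4 in replicate 3 alone.

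**Figure D4:**
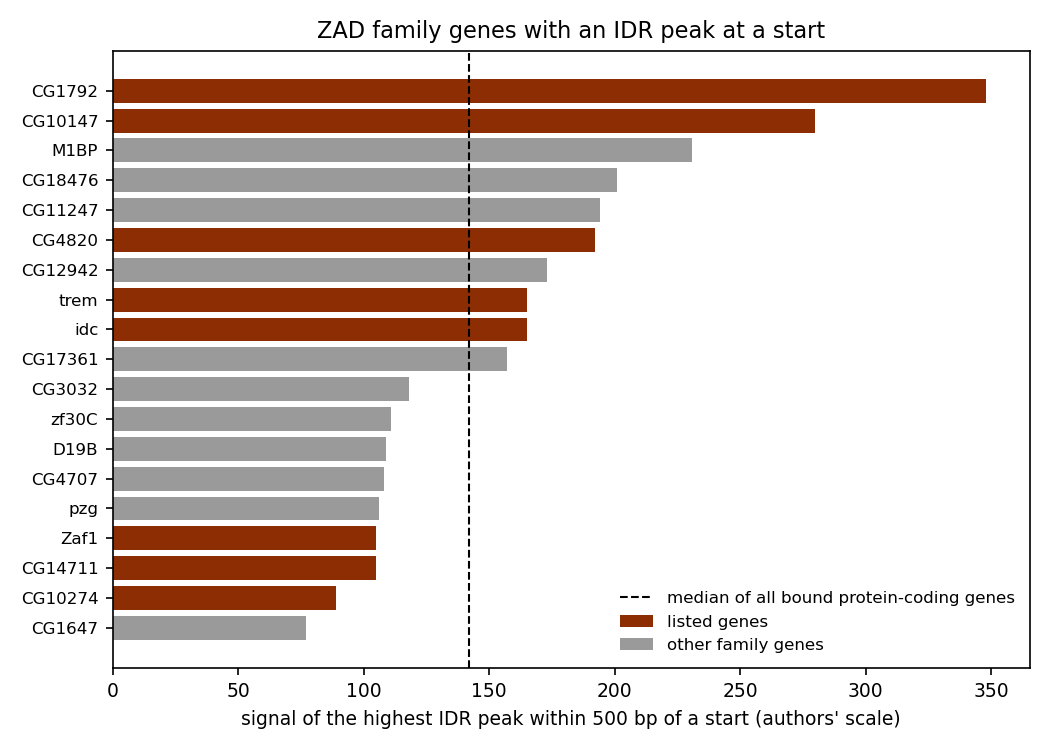
Signal value (x axis, authors' scale, from 0) of the highest IDR peak within 500 bp of a start for the 19 bound genes that met the family rule, which may take in genes that are not of the family. The 8 listed genes are in brown and the others in grey, and the dashed line is the median of all bound protein-coding genes, 142. CG1792 and CG10147 lead with 348 and 280, M1BP follows with 231, and idc with trem and CG14711 with Zaf1 each repeat 1 shared peak.

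Of the 7 peaks, 1 held a word that leads at the other summits of CG6654. Words of 8 bases were ranked by how much more often they occurred within 50 bp of the 2955 IDR summits away from the listed genes than in 5910 windows 200 to 300 bp beside them, both strands counted as 1 word. GTTTGACA led, in 2.64% of summit and 0.271% of flank windows, followed by CAGTTTGA, in 5.45% and 0.643%, and ACAGTTTG, at rank 4, in 5.62% and 0.694%. These words overlap and build the stretch TGTCAAACTGT when read on the other strand. A peak of rank 14, with a signal of 4999, 858 bp from the start of CG7120 (FBgn0035888), is shown as an example of a site that holds them, with 8 of the 15 leading words within 50 bases of its summit (chr3L:8395092-8395192, dm6, plus strand).
example: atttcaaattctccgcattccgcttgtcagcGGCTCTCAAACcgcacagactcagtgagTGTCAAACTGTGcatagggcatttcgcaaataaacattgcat

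At least 1 of the 15 leading words was in 18.8% of the 2955 summit windows, in 16.2% of the 1207 at protein-coding starts and in 5.03% of the flanks. It was in 1 of the 7 peaks here. That peak was CG14711 and Zaf1, where AAACTGTA, the tenth word (4.67% of summit and 0.846% of flank windows), lay 3 bp from the summit and 86 bp from the Zaf1 start (3R, 11623183 to 11623190). The leading word was in none of the 7, nor was it with 1 mismatch allowed, which 15.2% of the summit windows and 7.41% of the flanks satisfied. A match in 1 of 7 windows is too few to tell the share here from the 16.2% of start-site peaks or the 5.03% of flanks.

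Of 5 core promoter words searched on both strands, 2 occurred. The DNA replication-related element TATCGATA, which Dref binds, was at CG4820, 6 bp from the summit and 52 bp from the RpS25 start (3R, 11216339 to 11216346). It was in 0.878% of all IDR windows, 2.06% of those at starts and 0.574% of flanks. The TATA word TATAAA was in 3 of the 7, at CG10147, 1 bp from the summit and 85 bp from Bulli, at CG4820, 16 bp from the summit and 75 bp from RpS25, and at idc and trem, 37 bp from the summit and 196 bp from trem. It was in 21.1% of IDR windows, 22.7% of those at starts and 11% of flanks. The Motif 1 core GGTCACAC (0.608% of IDR windows, 1.32% at starts, 0.523% of flanks), the E-box CAGCTG (3.27%, 4.37% and 5.35%) and the GAGA word GAGAGAG (1.01%, 0.988% and 4%) were in none of the 7. A match is a description of the letters in the window, and the lack of a match says only that these letters are not there.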

How the data were processed

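Peak lists of ChIP-seq for CG6654-eGFP in embryos of 0 to 12 h, in 2 biological replicates of 1 group, were used on dm6. Per the deposited library notes the authors called regions against a control in each replicate and on pooled reads and derived an IDR set from them. For the aligner, the caller, the IDR threshold and read totals nothing is stated in the labels, so depth is unknown and no counting interval is given. The deposited signal value is a score on an unstated scale. Summits came from the offsets the authors deposited (another column of the lists, read as a position).

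Annotation was Ensembl release 115 on Release 6 of the genome, the same coordinates as the lists. Transposable elements and unplaced scaffolds were left out. A gene was bound when a summit lay within 500 bp of an annotated transcript start. Family proteins were the longest coding sequence of each gene, translated here from genome and annotation because no protein table was used, with C-x2-C, 30 to 65 residues, C-x2-C, the first cysteine within 120 residues, and a finger after it. The rule may take in genes that are not of the family. The names in the alternative list were matched by symbol, 14 through another name, and 64 genes were in both definitions.

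Words of 8 bases needed at least 1% of summit windows, with 0.5 added to flank counts. Named genes were the 9 genes, every gene with a start within 500 bp of their IDR summits, the 10 bound family genes of highest signal, the 2 nearest beyond 500 bp, and genes with a start within 10000 bp of CG6654. CG1647, the genes beside weaker regions, Art3 and CG42542 were added with their values known. The genes, lists and rules were chosen with earlier results of these data known. Counting at start sites and word ranking were tested on simulated data. Python 3.11.15, pandas 2.3.3, NumPy 2.4.6 and matplotlib 3.10.9 were used.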

Additional observations from a re-analysis of the deposited data

How the results depend on the processing

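Of the 61 alternative values 35 stayed within 1.5 times the value reported or within the spread of the replicates, and 26 moved. The tally is no measure of robustness. Signals of the pooled list equal those of the IDR peaks by construction, and signals of 1 replicate were set against those of the pooled reads. With each replicate left out in turn, 4 to 8 of the listed genes and 14 to 17 family genes were bound. Without replicate 3 the 4 that remained were CG10147, CG10274, idc and trem. In the upper 50% of IDR peaks 5 listed and 10 family genes were bound. The share of all protein-coding genes bound in that upper part was not counted, so nothing is read from these counts. In the whole IDR set the family by name had 11. The top-ranked pooled regions gave 8 and 19, as they are the IDR set. Counted once per peak, an alternative chosen after seeing the data, there were 6 and 17. Within 5 kb of the genes there were 25 pooled regions, 18 of replicate 1 and 24 of replicate 3, and within 1 kb 9 of replicate 3. Around CG6654, 5 kb gave 1 pooled and 3 replicate 3 regions, and 20 kb gave 1 IDR peak, 8 pooled, 5 replicate 1 and 13 replicate 3 regions. With any overlap 4 of the 7 peaks were in both replicate lists, and 4 were in the top-ranked regions of both, the latter chosen after seeing the data. The share of all IDR peaks in the top-ranked regions of both was not counted. Wider windows follow from their construction; the cause of the other moves was not tested. Replicate 1 listed no region, and so no signal value, for the peaks at CG1792, CG4820 and CG14711 with Zaf1. No paired analysis was possible because the samples form 1 group. The fixed length of the lists limits them to signals above 12.4.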
